A study of Mus musculus with 4 samples.

Results

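The ATF4 and amino acid response genes are a list of 39 genes: the transcription factor ATF4, its known target genes, amino acid transporters, enzymes of serine and one-carbon metabolism, and enzymes that charge transfer RNAs. They were found by the gene symbol in the amplicon name, and 38 of the 39 had a row among the 23930 amplicons measured (Phgdh is not analysed here). Of these, 36 reached the level needed for a test. Progenitor cells isolated from subcutaneous tissue of C57BL/6 mice were measured, in which loxP sites flank Gnas (the gene of Gαs, the G protein subunit that turns on cyclic AMP production). The mutant group was infected with Ad-Cre, an adenovirus that carries Cre recombinase (labelled Gnas-/-), and the control group with Ad-GFP (labelled wild type). Both groups carried the floxed allele and an adenovirus, and both were kept in osteogenic medium for 7 days. There were 2 libraries per group, called mutant 1, mutant 2, control 1 and control 2. Whether the pair of libraries in a group stems from different animals or cultures is not labelled, so a p-value here covers no more than the spread between these libraries. Effects of Cre itself and of losing Gnas cannot be told apart.

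ATF4 is made when the initiation factor eIF2 is phosphorylated, which happens when amino acids run short, when unfolded protein builds up in the endoplasmic reticulum (ER), or under other stress. General protein synthesis then slows while the Atf4 messenger RNA is translated more. ATF4 pairs with C/EBP factors and switches on genes that import and make amino acids, charge transfer RNAs and, if the stress lasts, favour cell death. Osteoblasts, which secrete much collagen, are known to need ATF4 for amino acid import and for their late differentiation. Since ATF4 is controlled mainly at translation, its messenger RNA level is not a measure of its activity.

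The binding site of ATF4 with its C/EBP partners is the C/EBP-ATF response element. It is shown because it is a feature that several of these genes are known to share. The list was not chosen by promoter sequence, but it holds known ATF4 targets. A share above that of all genes is therefore no independent result. Its core, TGATGNAA, was searched on both strands (TTNCATCA on the other strand) in the RefSeq promoter windows of GRCm38.p6, which run from 250 bases before to 50 bases after an annotated start. At least 1 core was present for 12 of the 31 members that matched a window, or 38.7%. The share was 4.51% of the 27025 genes with a window, whether tested here or not. The 12 were Aars, Asns, Chac1, Gars, Got1, Herpud1, Nupr1, Pck2, Slc1a4, Slc7a11, Trib3 and Vldlr. A match is a description of the letters and does not show binding. The sites of 8 of these members follow, each written along the strand of the gene with the core in capitals. Those of Aars, Gars, Pck2 and Slc1a4, also described below, are not shown. Their log2 differences from control 1 (-0.75, -0.24, -0.26 and -0.73) were smaller in size than those of the 8 shown (-0.997 for Asns to -3.84 for Trib3). The 8 shown thus do not stand for all 12.
Trib3: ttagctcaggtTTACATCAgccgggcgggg
Nupr1: aaagggccagaTTGCATCAgacagggcttg
Chac1: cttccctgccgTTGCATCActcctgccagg
Vldlr: agcagcaatagTTGCATCAgcgctcctagc
Herpud1: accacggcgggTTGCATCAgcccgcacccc
Asns: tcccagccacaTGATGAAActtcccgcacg
Got1: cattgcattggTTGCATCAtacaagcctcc
Slc7a11: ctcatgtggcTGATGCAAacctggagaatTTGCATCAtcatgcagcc

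These stretches lie, in GRCm38.p6, at chr2:152344028-152344057 on the minus strand (Trib3), chr7:126625562-126625591 on the minus strand (Nupr1), chr2:119351038-119351067 on the plus strand (Chac1) and chr19:27216809-27216838 on the plus strand (Vldlr). The others lie at chr8:94386306-94386335 on the plus strand (Herpud1), chr6:7693214-7693243 on the minus strand (Asns), chr19:43524689-43524718 on the minus strand (Got1) and chr3:50443643-50443689 on the minus strand (Slc7a11). The Slc7a11 stretch holds 2 cores that face each other. In Trib3 the core lies just after the annotated start, and in the other 7 of these genes before it. The letters in the variable position and around the core differ between the genes, while every stretch shown except those of Trib3 and Asns carries TTGCATCA.

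**Figure D1:**
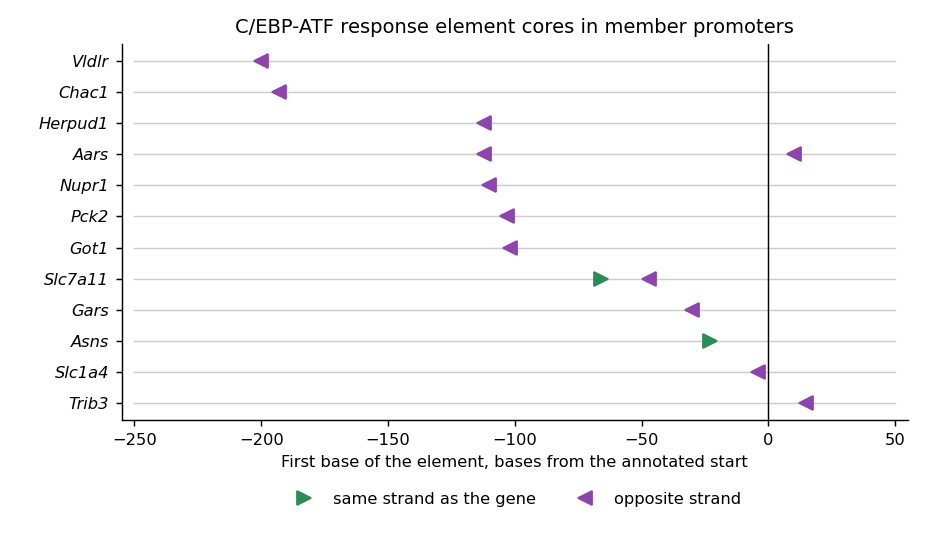
Position of the first base of each C/EBP-ATF response element core in the promoter windows of 12 members, in bases from the annotated start (vertical line), with triangles that give the strand. Most cores stand upstream of the start, and Slc7a11 and Aars have 2 each.

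The libraries were unlike each other in ways that touch every comparison. Each library held 13483518 to 18455811 reads. Gnas is not analysed here, so the targeted gene gives no check of the genotype labels. All 10 stromal progenitor and fibroblast markers, such as Pdgfra and Col1a1, stood above 1 RPM in each library (RPM are reads scaled to the same total in every library), while the 5 keratinocyte markers stayed below it. The stromal markers summed to 35395 and 39769 RPM in the mutants, 17663 RPM in control 1 and 25253 RPM in control 2. Of these 10, 5 stood above both controls in each mutant and 1 below both. Across all tested genes these placements took 30.6% and 21.1%. The summed level of 7 endothelial markers was 18.3 and 36.7 RPM in the mutants, 10.3 RPM in control 1 and 84.8 RPM in control 2. In the same order, 6 skeletal muscle markers summed to 42.6, 115, 57.2 and 114 RPM. For 5 adipocyte markers the sums were 128, 118, 96.3 and 102 RPM. The mutants resembled each other more than the controls did: Pearson's r of log2 values was 0.981 for the mutant pair, 0.916 for the control pair and 0.885 to 0.909 for a mutant with a control, computed over 11638 tested genes that are not independent of each other. Xist, the RNA of the inactive X chromosome of females, stood at 395 and 419 RPM in the mutants, 165 RPM in control 1 and 0 RPM in control 2, while the Y-linked Ddx3y stood at 26.9 and 12.5 RPM in the mutants, 61.4 RPM in control 1 and 124 RPM in control 2. The summed level of 16 macrophage markers was 34.9 and 21.6 RPM in the mutants, 87.2 RPM in control 1 and 1080 RPM in control 2, with 6 and 5 of the 16 markers at 1 RPM or more in the mutants, 9 in control 1 and 13 in control 2. Of the 16, 6 and 7 were at 0 in the mutants, 3 in control 1 and 1 in control 2. Adgre1 was at 0 in both mutants and in control 1, and Ptprc in both mutants, but control 2 held only 1.71 and 2.67 RPM of these. C1qa went the other way, with 0.172 and 0.135 RPM in the mutants and 0 RPM in both controls. Csf1r, at 2.00 and 1.68 RPM in the mutants, stood above control 1 (1.08 RPM) and below control 2 (14.9 RPM). Lyz2 alone gave 822 RPM of the sum in control 2. The median log2 difference of the 10 tested was -4.12 against control 2 and -1.06 against control 1. Over all tested genes it was 0.14 and 0.02. Aif1 stood above control 1 (2.19). Cd53 had 1.26 and 0.943 RPM in the mutants, against 35.6 RPM in control 1 and 37.5 RPM in control 2. It alone of the 10 was called lower against both controls together by limma, described below (adjusted p = 0.0176, background 0.576% lower). EdgeR called 1 of the 10 lower and DESeq2 6 (background 0.232% and 4.24%). Both mutants and control 1 thus held Xist as well as Ddx3y RNA, and control 2 held Ddx3y alone. By these RNAs the 2 controls did not hold the same mix of cells, and which animals they came from is not labelled. RNA of sex-linked genes and of cell type markers moved with the groups and between the controls. The part of sex or cell makeup in the results was not tested. A lower marker level may mean fewer cells of a type or less RNA per cell, which cannot be told apart. Members are therefore given against each control as well as against both.

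Nearly all ATF4 and amino acid response genes were highest in control 1. Control 1 held the highest value of the 4 libraries for 35 of the 36 tested members, or 97.2%, against 28.4% of all tested genes. Control 1 exceeded control 2 by over 2-fold for 23 members (63.9%, against 14.1% of all tested genes), and the reverse held for 1 member, Ddit4 (2.78%, against 9.98%). Both mutants lay between the 2 controls for 15 members and below both for another 15, and above both controls for none. Across all tested genes these placements took 20.2%, 21.1% and 30.6%. Both mutants lay over 2-fold below control 1 for 21 members (58.3%, against 6.56% of all tested genes) and over 2-fold above it for none (against 11.4%). Over 2-fold below control 2 stood 2 members, Ddit4 and Vldlr (5.56%, against 6.37%), and over 2-fold above it also 2, Trib3 and Chac1 (5.56%, against 14.4%). Both mutants were within 2-fold of control 2 for 25 members (69.4%, a share near the 66.7% of all tested genes) and within 2-fold of control 1 for 9 (25%, against 70.5%). The mutants were within 1.5-fold of each other for 26 members (72.2%, against 82.3%).

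Set against both controls together, no member passed the test. Limma on log2(RPM + 1), with Benjamini-Hochberg adjustment over all 11638 tested genes and a threshold of 0.05, called 0 of the 36 tested members higher and 0 lower. Over all tested genes it called 2.3%, of which 1.73% higher and 0.576% lower. At an unadjusted p below 0.05, 7 members were lower and 0 higher, where 6.01% of all tested genes were lower and 11.9% higher. EdgeR on the recovered whole reads also called no member (background 0.232% lower and 0.567% higher). DESeq2 called 9 lower and none higher, where it called 4.24% of all tested genes lower (Eif4ebp1, Vldlr, Ppp1r15a, Psph, Nupr1, Slc7a11, Got1, Ddit3 and Atf4). The median difference of the members was -0.73 on the log2(RPM + 1) scale, beside 0.08 over all tested genes.

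The picture depended on which control was used. Against control 1 alone, 26 of 36 members were lower in the mutants and 0 higher, a share of 72.2% lower beside a background of 6.82% lower and 9.15% higher, or 16% in either direction (limma with 1 control library, which is assumed to vary like the mutants). EdgeR called 28 members lower and none higher (background 7.95% lower and 9.6% higher) and DESeq2 27 lower (background 7.32%). At an unadjusted p below 0.05, 30 were lower and 0 higher (background 13.2% and 17.1%). Against control 2 alone, 4 members were lower and 1 higher, shares of 11.1% and 2.78%, where the background was 6.89% lower and 13.8% higher, or 20.7% in either direction. EdgeR called 5 lower and none higher (background 9.51% and 11.6%) and DESeq2 6 lower (background 8.58%), while at an unadjusted p below 0.05, 8 were lower and 5 higher (background 12.7% and 23.8%). The median member difference was -1.32 against control 1 and -0.08 against control 2, beside 0.02 and 0.14 over all tested genes. With no filter on low values, limma called 0 members against either single control. These 2 comparisons share the mutant libraries, and the difference between them, which is the difference between 2 single control libraries, was not tested. A fit with 1 control takes its spread within groups from the mutants alone. The mutants were more alike (r of 0.981) than the controls (0.916), so the p-values of such a fit leave out the larger spread. The shares of all tested genes in this paragraph are the background for the counts of each role group below too. In groups this small, few or no calls against control 2 are near those shares. They are not read as a result about a group.

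**Figure D2:**
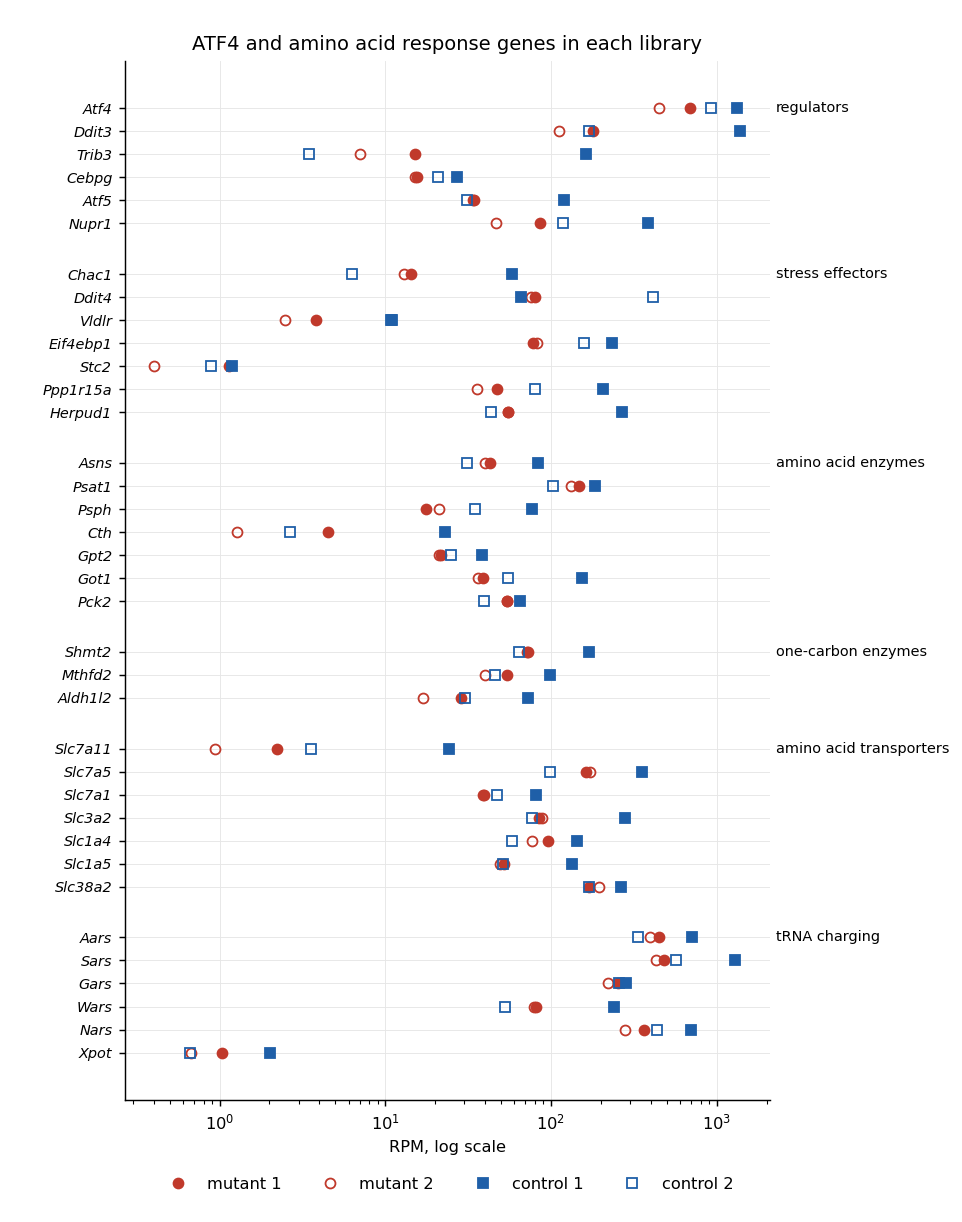
RPM (log axis) of the 36 tested members in each library, with mutants as circles and controls as squares, grouped by role. The filled square of control 1 is the rightmost point in every row except Ddit4, and for many genes the open square of control 2 lies among the circles.

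Among the regulators, Atf4 itself had 694 and 447 RPM in the mutants, against 1320 RPM in control 1 and 926 RPM in control 2. Both mutants stood below both controls, with means of 570 ± 175 RPM in the mutants and 1123 ± 278 RPM in the controls (SD, n = 2 each). The log2 difference of -0.99 (SE 0.34, adjusted p = 0.229) did not pass against both controls. Atf4 fell against control 1 (-1.24, adjusted p = 0.0283) and did not pass against control 2 (-0.73, adjusted p = 0.117).

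Ddit3, which encodes the stress factor CHOP and promotes cell death when ER stress lasts, had 179 and 111 RPM in the mutants, against 1390 RPM in control 1 and 170 RPM in control 2. Control 2 thus lay within the range of the mutants, and only control 1 stood apart. Its difference was -3.29 against control 1 (SE 0.29, adjusted p = 0.000826) and -0.27 against control 2 (adjusted p = 0.546). Trib3, a pseudokinase that dampens ATF4 and CHOP, had 15.1 and 7.07 RPM in the mutants, against 162 RPM in control 1 and 3.49 RPM in control 2. Here the mutants lay between the controls, 14.6-fold below control 1 by their mean yet over 2-fold above control 2 in each library. The Trib3 difference was -3.84 against control 1 (adjusted p = 0.00161) and 1.35 against control 2 (adjusted p = 0.0818).

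Nupr1, a small chromatin protein induced by stress, had 85.4 and 46.7 RPM in the mutants, against 384 RPM in control 1 and 118 RPM in control 2. Both mutants stood below both controls. Nupr1 fell against control 1 (-2.59, adjusted p = 0.00327) and did not pass against control 2 (-0.89, adjusted p = 0.115) or against both (-1.74, adjusted p = 0.244). Cebpg, a C/EBP partner of ATF4, had 15.5 and 15.2 RPM in the mutants, against 27.3 RPM in control 1 and 20.7 RPM in control 2, and passed in neither comparison with a single control. Atf5, a relative of ATF4, had 33.7 and 34.5 RPM in the mutants, against 121 RPM in control 1 and 31.0 RPM in control 2. The mutants and control 2 were alike in Atf5, and the gene fell against control 1 (-1.79, adjusted p = 0.00212). In all, 5 of 6 regulators were lower against control 1 and none was called against control 2 (limma, where 2 were lower and 1 higher at an unadjusted p below 0.05; edgeR called none and DESeq2 called Atf4 and Nupr1 lower).

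Vldlr, Eif4ebp1 and Ppp1r15a, all stress effectors, were the members that limma called lower against each control separately. The share of all tested genes called so is not given here, and the fits share the mutant libraries. No result about the members is therefore read from how many were called in both. Beyond these members, edgeR also called Psph, and DESeq2 Atf4 and Nupr1, lower against each control. Vldlr, a lipoprotein receptor that ATF4 induces, had 3.84 and 2.49 RPM in the mutants, against 11 RPM in control 1 and 10.9 RPM in control 2. The controls were nearly equal and both mutants lay well below them. Vldlr fell against control 1 (-1.55, adjusted p = 0.0348) and against control 2 (-1.53, adjusted p = 0.0303), while against both controls together its difference of -1.54 (SE 0.34) had an adjusted p of 0.107. Eif4ebp1, which encodes a brake on cap-dependent translation, had 78.1 and 82.0 RPM in the mutants, against 234 RPM in control 1 and 159 RPM in control 2. The groups did not overlap. Eif4ebp1 fell against control 1 (-1.53, adjusted p = 0.00259) and against control 2 (-0.98, adjusted p = 0.0143), and had the smallest adjusted p of the members against both (-1.26, SE 0.26, adjusted p = 0.0911). Ppp1r15a, which encodes the GADD34 subunit that reverses eIF2 phosphorylation, had 47.0 and 35.6 RPM in the mutants, against 206 RPM in control 1 and 79.7 RPM in control 2. It stood below both controls and fell against control 1 (-2.30, adjusted p = 0.00146) and against control 2 (-0.94, adjusted p = 0.0364), with an adjusted p of 0.182 against both.

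Chac1, which encodes an enzyme that degrades glutathione, had 14.4 and 12.9 RPM in the mutants, against 57.8 RPM in control 1 and 6.30 RPM in control 2. Like Trib3 it lay over 2-fold above control 2 and over 2-fold below control 1 in each mutant. Its difference was -2.01 against control 1 (adjusted p = 0.00286) and 1.00 against control 2 (adjusted p = 0.0558). Herpud1, a component of ER-associated degradation, had 55.3 and 55 RPM in the mutants, against 268 RPM in control 1 and 43.5 RPM in control 2. The mutants nearly equalled each other and lay close to control 2, and Herpud1 fell against control 1 (-2.26, adjusted p = 0.000728).

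Ddit4 went the other way between the controls. This inhibitor of mTORC1, induced by ATF4 and by hypoxia, had 80.0 and 76.3 RPM in the mutants, against 65.8 RPM in control 1 and 411 RPM in control 2. Control 2 alone was high, 5.26-fold above the mutant mean. Ddit4 fell against control 2 (-2.38, SE 0.19, adjusted p = 0.000455) and did not pass against control 1 (0.24, adjusted p = 0.457). Control 2 was also the library in which targets of the hypoxia-inducible factor (HIF) were high: of 13 tested HIF targets, 12 were lower in the mutants against control 2 and 5 lower and 1 higher against control 1. The shares of all tested genes called against each single control, given above, are the background for these counts. The summed macrophage markers were highest in control 2 too. The part of either in the Ddit4 difference was not tested. Stc2, a secreted glycoprotein gene induced by ER stress, stayed at 0.404 to 1.15 RPM in the mutants and 0.890 to 1.19 RPM in the controls and was called nowhere.

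Every tested amino acid enzyme was highest in control 1, and these genes differed in where the mutants stood beside control 2. Asns, which encodes asparagine synthetase and is the textbook target of the amino acid response, had 42.7 and 39.8 RPM in the mutants, against 83.3 RPM in control 1 and 31.1 RPM in control 2. The mutants lay between the controls, and Asns fell against control 1 (-1.0, adjusted p = 0.0200) with no call against control 2 (0.40, adjusted p = 0.241). Psph, which encodes the phosphatase of the last step of serine synthesis, had 17.7 and 21.1 RPM in the mutants, against 77.3 RPM in control 1 and 34.9 RPM in control 2. Got1, an aspartate aminotransferase gene of the cytosol, had 38.9 and 36.4 RPM in the mutants, against 154 RPM in control 1 and 55 RPM in control 2. Both genes stood below both controls in each mutant. Psph fell against control 1 (-1.95, adjusted p = 0.00281) and had an adjusted p of 0.0643 against control 2 and 0.191 against both. Got1 fell against control 1 (-2.01, adjusted p = 0.00143), with 0.125 against control 2 and 0.279 against both.

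Cth, which encodes the enzyme that makes cysteine from cystathionine, had 4.53 and 1.28 RPM in the mutants, against 22.9 RPM in control 1 and 2.67 RPM in control 2. The mutants spread to either side of control 2, and Cth fell against control 1 (-2.75, adjusted p = 0.0154). Gpt2, an alanine aminotransferase gene, had 21.7 and 21.0 RPM in the mutants, against 38.3 RPM in control 1 and 24.9 RPM in control 2, and limma called it nowhere. Psat1, which encodes the aminotransferase of serine synthesis, had 148 and 132 RPM in the mutants, against 184 RPM in control 1 and 102 RPM in control 2. Pck2, a mitochondrial enzyme gene that joins amino acid carbon to gluconeogenesis, had 54.2 and 53.9 RPM in the mutants, against 65.2 RPM in control 1 and 39.5 RPM in control 2. For Psat1 and Pck2 the mutants lay between the controls, and neither gene passed in any comparison. Cbs, the enzyme gene before Cth in the same pathway, had at most 0.813 RPM and was not tested. Of 7 tested amino acid enzymes, 4 were lower against control 1, and none was called against control 2 (limma, where 2 were lower at an unadjusted p below 0.05; edgeR called 1 lower and DESeq2 none).

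All 3 one-carbon enzymes, which work in mitochondria, were lower against control 1 and none was called against control 2 (limma, edgeR and DESeq2, and none at an unadjusted p below 0.05). Shmt2, which splits serine into glycine and a one-carbon unit, had 72.2 and 72.3 RPM in the mutants, against 169 RPM in control 1 and 64.2 RPM in control 2. Mthfd2, the next enzyme, had 54.1 and 40.1 RPM in the mutants, against 98.0 RPM in control 1 and 46.0 RPM in control 2. Aldh1l2, which oxidises the one-carbon carrier to release carbon dioxide, had 28.5 and 17.0 RPM in the mutants, against 72.4 RPM in control 1 and 30.5 RPM in control 2. In each case control 2 was near the mutants or within their range. The differences against control 1 were -1.22 for Shmt2 (adjusted p = 0.00645), -1.06 for Mthfd2 (adjusted p = 0.0287) and -1.67 for Aldh1l2 (adjusted p = 0.0155).

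Of 7 tested amino acid transporters, 5 were lower against control 1, and 1 was higher against control 2. Slc7a11, the cystine importer that supplies glutathione synthesis and carries 2 cores in its promoter, had 2.23 and 0.943 RPM in the mutants, against 24.2 RPM in control 1 and 3.56 RPM in control 2. It was 15.2-fold below control 1 by the mutant mean and also below control 2 in each mutant. Slc7a11 fell against control 1 (-3.33, SE 0.42, adjusted p = 0.00294) and did not pass against control 2 (-0.86, adjusted p = 0.217) or both (-2.10, adjusted p = 0.294).

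Slc7a5, the large neutral amino acid transporter, had 162 and 172 RPM in the mutants, against 354 RPM in control 1 and 98.4 RPM in control 2. The mutants lay between the controls, so Slc7a5 fell against control 1 (-1.08, adjusted p = 0.00932) and rose against control 2 (0.76, SE 0.19, adjusted p = 0.0316). The rise was called by neither edgeR (adjusted p = 0.0637) nor DESeq2 (0.0884), and not under TMM, median-of-ratios or quantile scaling. Slc3a2, the chain that carries Slc7a5 and Slc7a11 to the membrane, had 85.1 and 88.4 RPM in the mutants, against 278 RPM in control 1 and 77.3 RPM in control 2. Unlike Slc7a5 it stood near control 2, and it fell against control 1 (-1.67, adjusted p = 0.00192).

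Slc7a1, an importer of arginine and lysine, had 39.4 and 38.7 RPM in the mutants, against 81.4 RPM in control 1 and 47.3 RPM in control 2, and fell against control 1 (adjusted p = 0.0167). Slc1a5, an importer of glutamine, had 52.2 and 49.0 RPM in the mutants, against 134 RPM in control 1 and 51.2 RPM in control 2, and fell against control 1 (adjusted p = 0.00466). For Slc1a5 the mutants and control 2 overlapped. Slc1a4, which carries alanine and serine, had 95.6 and 76.7 RPM in the mutants, against 143 RPM in control 1 and 58.6 RPM in control 2. Slc38a2, a sodium-coupled importer of small neutral amino acids, had 169 and 196 RPM in the mutants, against 265 RPM in control 1 and 169 RPM in control 2. Neither Slc1a4 nor Slc38a2 passed with limma in any comparison. Slc7a3, another importer of arginine and lysine, had 0 and 0.067 RPM in the mutants, against 1.19 RPM in control 1 and 0 RPM in control 2, and was not tested; a value of 0 allows up to 3 reads, or 0.163 to 0.222 RPM in these libraries.

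Of 6 genes for charging or exporting transfer RNAs, 4 were lower against control 1, and none was called against control 2 (limma, edgeR and DESeq2; 1 higher at an unadjusted p below 0.05). Sars, the seryl-tRNA synthetase, had 482 and 429 RPM in the mutants, against 1283 RPM in control 1 and 569 RPM in control 2. Wars, the tryptophanyl enzyme, had 81.2 and 79.4 RPM in the mutants, against 239 RPM in control 1 and 52.6 RPM in control 2. Nars, the asparaginyl enzyme, had 364 and 278 RPM in the mutants, against 697 RPM in control 1 and 438 RPM in control 2. Sars and Nars thus stood below both controls, while for Wars the mutants lay between them. All 3 fell against control 1, Sars by 1.49 (adjusted p = 0.00373), Wars by 1.56 (adjusted p = 0.00235) and Nars by 1.13 (adjusted p = 0.0167), and none passed against control 2 (adjusted p = 0.283, 0.074 and 0.191 in that order).

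Aars, the alanyl enzyme, had 451 and 397 RPM in the mutants, against 714 RPM in control 1 and 334 RPM in control 2, and fell by 0.75 against control 1 (adjusted p = 0.0447). Gars, the glycyl enzyme, had 255 and 222 RPM in the mutants, against 282 RPM in control 1 and 257 RPM in control 2, with nearly equal levels in the controls. Xpot, the exporter of transfer RNAs from the nucleus, had 1.03 and 0.673 RPM in the mutants, against 2.00 RPM in control 1 and 0.667 RPM in control 2. Neither Gars nor Xpot was called in any comparison.

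**Figure D3:**
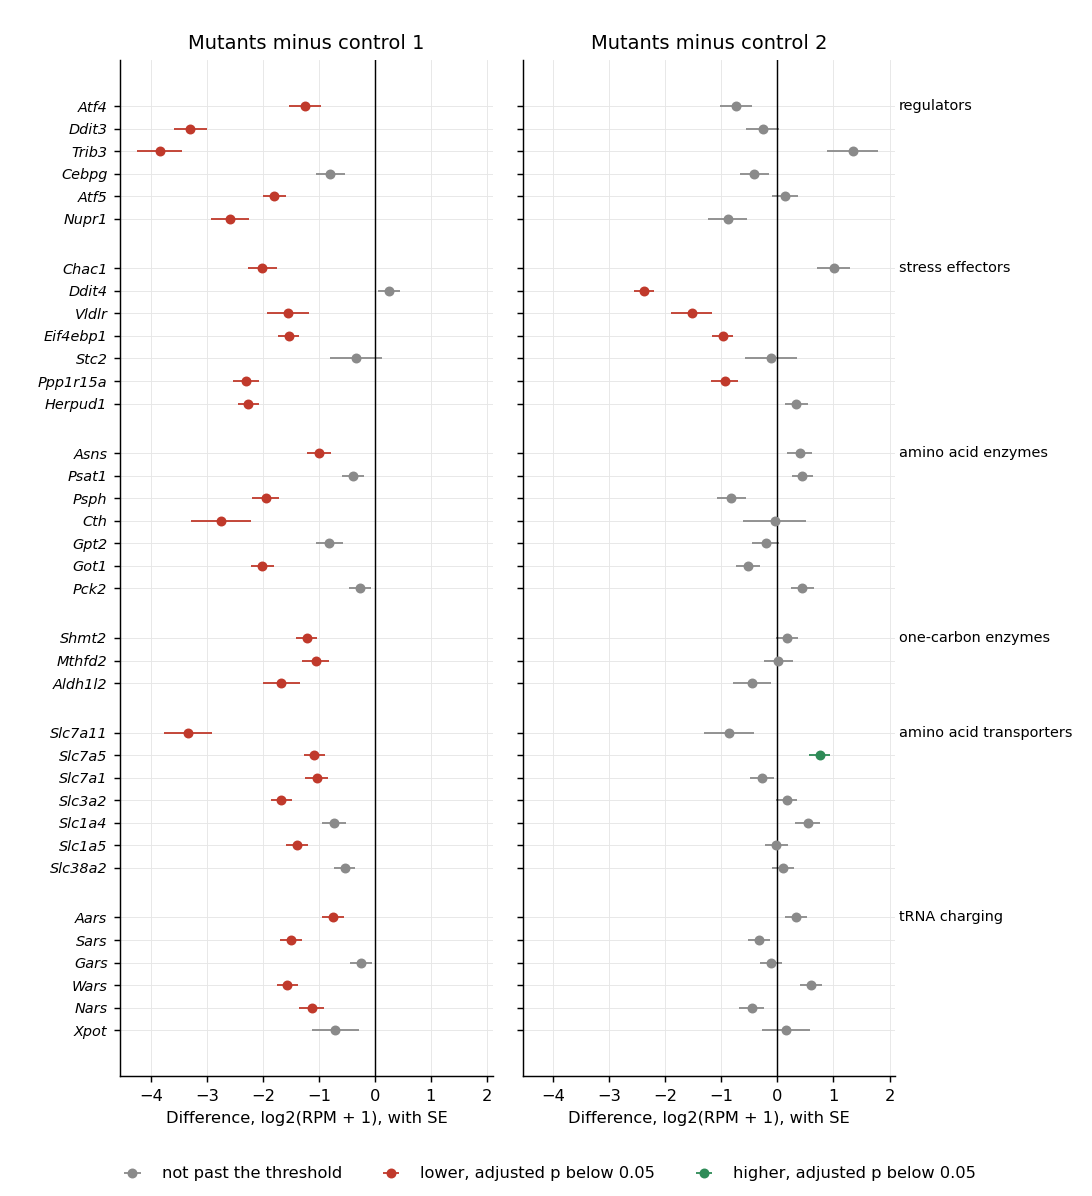
Difference of the 2 mutants from control 1 (left) and from control 2 (right) on the log2(RPM + 1) scale, with the SE of the limma fit, for each tested member. On the left 26 members are called lower, and on the right 4 are called lower (Ddit4, Vldlr, Eif4ebp1 and Ppp1r15a) and Slc7a5 higher.

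Members with and without a response element core were lower against control 1. Of the 12 with a core, 9 were lower against control 1 (median difference -1.78), and of 17 tested members with a window but no core, 10 were (median -1.06). Against control 2 the medians were 0.34 and -0.21. Trib3 and Chac1, which lay above control 2, and Vldlr, which lay below both controls, all carry the core, so within these windows its presence went with no single placement.

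Genes around the module were also read for the pattern of control 1, in lists chosen with earlier results of these data known. The shares of all tested genes called in each comparison, given above beside the members, are the background for these lists too. Over all tested genes the median difference was 0.02 against control 1 and 0.14 against control 2. Of 16 tested genes of the unfolded protein response, 15 were lower in the mutants against control 1 (93.8%, median -1.96), and against control 2, 2 were lower and 1 higher (median -0.28). Hspa5, which encodes the main ER chaperone BiP and was named after its values were seen, had 647 and 512 RPM in the mutants, against 4253 RPM in control 1 and 720 RPM in control 2. For Hspa5, as for Ddit3 and Herpud1, control 1 stood far above the other libraries. Calr, an ER chaperone gene also named after its values were seen, differed in both controls, with 786 and 815 RPM in the mutants, against 4910 RPM in control 1 and 48.2 RPM in control 2, and was the 1 gene of this list called higher against control 2. The part of these genes in the member differences was not tested. Against both controls none of the 16 passed (limma and edgeR; 2 lower at an unadjusted p below 0.05, and 7 lower by DESeq2), with Pdia6, a protein disulfide isomerase gene (-1.39, adjusted p = 0.146), and Xbp1, a transcription factor of this response (-0.73, adjusted p = 0.166), nearest.

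Of 17 other genes linked to ATF4, 7 were lower and 0 higher against control 1, and 5 were lower and 1 higher against control 2. Against both controls limma called 1 of them lower, Bcat1, while edgeR called none and DESeq2 called 4 lower (Bcat1, Cebpb, Atf3 and Gdf15). Bcat1, which encodes the enzyme that removes the amino group of branched-chain amino acids in the cytosol, had 78.1 and 69.6 RPM in the mutants, against 246 RPM in control 1 and 402 RPM in control 2. The groups did not overlap, and Bcat1 fell by 2.08 on the log2 scale (SE 0.29, adjusted p = 0.0393). The call ended with edgeR (adjusted p = 0.0653), without the filter on low values (0.0704), without a trend (0.0594) and without either mutant library (0.549 and 0.611). Cebpb, a C/EBP partner of ATF4, had 119 and 118 RPM in the mutants, against 332 RPM in control 1 and 254 RPM in control 2, with an adjusted p of 0.0643 against both controls with limma (0.0489 under TMM and 0.0481 under median-of-ratios scaling) and 9.13e-06 with DESeq2.

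Upstream of ATF4, the 10 tested eIF2 kinases and initiation factors did not share the pattern. None was called against control 1 (limma, edgeR and DESeq2, and none at an unadjusted p below 0.05), and their median difference was 0.17. Against control 2, 3 were higher and 1 lower. None passed against both controls (limma, edgeR and DESeq2; 1 higher at an unadjusted p below 0.05), with Gcn1l1, a co-activator of the amino acid sensing kinase, nearest (89.8 and 105 RPM in the mutants, against 71.1 RPM in control 1 and 55.1 RPM in control 2), followed by Eif2s1, the alpha subunit of eIF2 (-0.54, adjusted p = 0.358). Eif2ak3, the ER stress kinase PERK, was named after its values were seen: it had 59.6 and 56.4 RPM in the mutants, against 50.5 RPM in control 1 and 21.1 RPM in control 2.

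Of 15 other cytosolic tRNA synthetases, 4 were lower against control 1 (26.7%) and 1 against control 2, and none was higher. Against both controls none passed (limma, edgeR and DESeq2; 2 lower at an unadjusted p below 0.05), with Yars (-0.68, adjusted p = 0.229) and Farsb (-0.77, adjusted p = 0.259) nearest. Their median difference against control 1 was -0.51, beside -0.94 for the 5 synthetases and Xpot among the members, and the gap was not tested. The HIF targets stood apart in the other direction, with a median of -2.49 against control 2 and -0.52 against control 1. Against both controls limma called 1 of the 13 lower, edgeR none and DESeq2 7. The gene called by limma was Hk2, a hexokinase of the first step of glycolysis (35.2 and 38.1 RPM in the mutants, against 108 RPM in control 1 and 169 RPM in control 2, adjusted p = 0.0477), and this call ended under 8 of the alternatives, edgeR included. Vegfa, the vascular growth factor gene, passed with DESeq2 (adjusted p = 1.21e-05) and not with limma (68.2 and 44.9 RPM in the mutants, against 208 RPM in control 1 and 624 RPM in control 2, adjusted p = 0.0941).

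**Figure D4:**
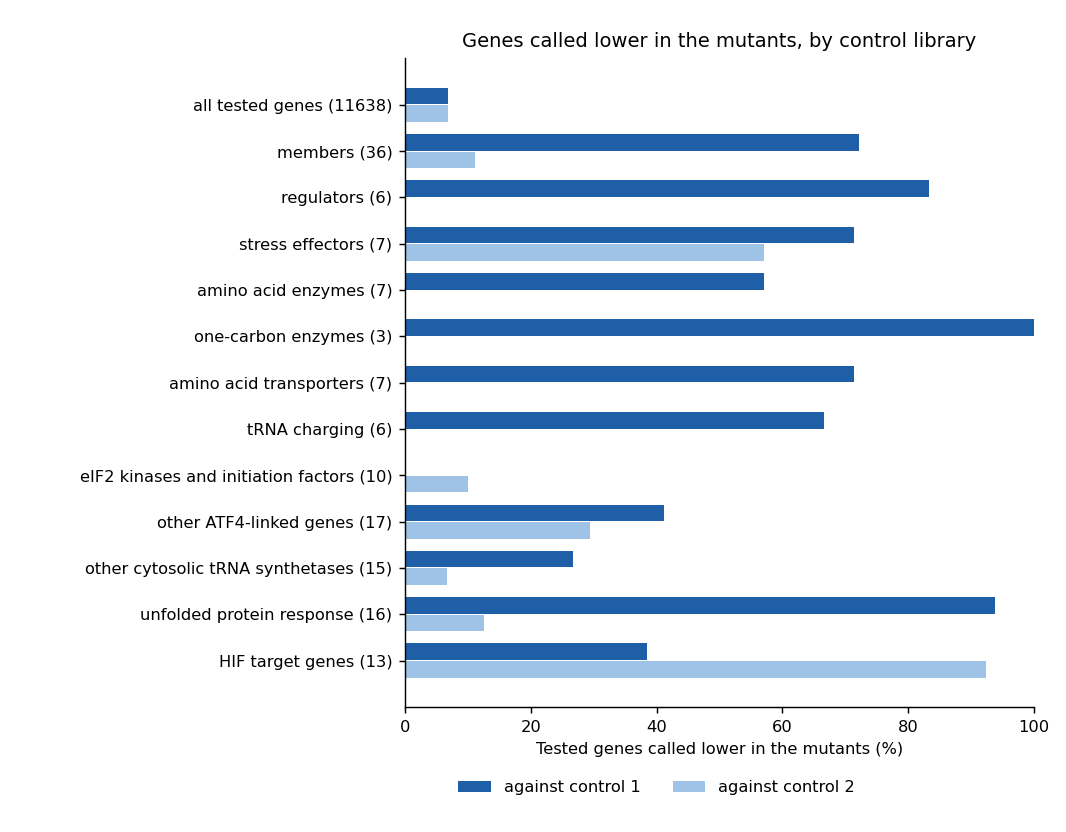
Percentage of tested genes called lower in the mutants (limma, adjusted p below 0.05) against control 1 and against control 2, for all tested genes, the members, their role groups and 5 further lists, with the number tested in brackets. The members reach 72.2% against control 1 and 11.1% against control 2, beside 6.82% and 6.89% of all tested genes.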

How the data were processed

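The deposited table holds RPM (reads scaled by library total), which per the labels come from Ion AmpliSeq Transcriptome Mouse Gene Expression Panel libraries, 1 amplicon per gene. The sources used here do not give the aligner, counter, genome build or any filter. Libraries held 13483518 to 18455811 reads. An amplicon measures only its own target, and levels are not compared between genes. Steps between low RPM values gave back whole reads: 100% of non-zero values were whole within 0.01 read. A gene entered the test on reaching 1 RPM in 2 or more libraries, which left 11638 for limma 3.58.1 in R 4.3.3 (trend, two-sided) on log2(RPM + 1), which understates changes of low genes. The fit of all libraries was run on simulated data in which both controls shared the same mean and spread for each gene. Fits with a single control, and controls as unlike as these, were not simulated. Alternatives were the pseudocount, filter, scaling, trend, leaving out single libraries, a block on the replicate number, edgeR 4.0.16 and DESeq2 1.42.0. With 1 control left out, the same genes were tested. Members, role groups and lists were chosen with earlier results of these data known. Members named in full were Atf4, Ddit3, Trib3, Asns, Slc7a11, those past the threshold, 3 per role group by smallest p and those between the controls by over 2-fold; the rest were added so that all are shown. Promoters and figures used Python 3.11.15 with pandas 2.3.3 and matplotlib 3.10.9. Floors cover counting error only.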

Additional observations from a re-analysis of the deposited data

How the results depend on the processing

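Against both controls, the count of members called lower was 0 and became 1 with the replicate block (Nupr1, adjusted p = 0.0388) and 9 with DESeq2. Leaving out each library in turn gave 0 to 26 members lower and 0 to 1 higher, and a median member difference of -1.32 to -0.08. This median was -0.98 with edgeR and -1 with DESeq2, against -0.73. Over all tested genes, 201 higher and 67 lower became 56 and 18 without a filter, 66 and 27 with edgeR and 598 and 493 with DESeq2. The replicate block gave 123 lower, and leaving out each library gave 0 to 1609 higher and 0 to 802 lower (0 and 0 without either mutant). Against control 1, the 26 members called lower became 0 without a filter. The other alternatives there left the count within 1.5 times. Against control 2, the 1 member called higher became 2 with a filter at 5 RPM and 0 with no filter, TMM, median-of-ratios or quantile scaling, no trend, edgeR or DESeq2. The 4 members called lower against control 2 became 0 with no filter and 2 without a trend. The cause of these changes was not tested. Relative to the fit with both controls, 14 of the 36 members changed sign without control 1. Of these 14, Slc7a5 was called (0.76 without control 1 and -1.08 without control 2), and 13 were not, such as Trib3 (1.35) and Chac1 (1.00). Without control 2, 3 members changed sign, none of them called (Ddit4, Pck2 and Psat1). Calr was called in opposite directions, with 4.03 without control 1 and -2.62 without control 2. Quantile scaling moved the median of all genes by -0.115. The labels do not say that a number marks shared cells: deviations of same-numbered libraries correlated at 0.164 across genes, so the block is no more than an alternative. Apart from Nupr1, the block changed no call of a named gene. Against a single control, leaving out a mutant leaves 1 library on each side and no test, and the block could not be fitted. With 2 libraries per group, where 1 is unlike the other, small differences between groups cannot be resolved.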
